A study of Gorilla gorilla with 12 samples.

Results

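HOX genes encode homeodomain transcription factors, and their levels were read here in cultured gorilla fibroblasts as a record of positional identity. The list held 10 genes, HOXA4, HOXA5, HOXA9, HOXA10, HOXB2, HOXB5, HOXB6, HOXB7, HOXC6 and HOXD4, and its members were all probe sets that the array annotation gives to exactly 1 of these symbols. The annotation did so for 6 of the 10 genes, with 10 of the 12625 probe sets of the array. HOXB2, HOXB5, HOXB6 and HOXB7 had 1 probe set each, and HOXC6 and HOXD4 had 3 each. HOXA4, HOXA5, HOXA9 and HOXA10 were not analysed here, because no probe set listed in the annotation carries 1 of their symbols alone. All 10 symbols were found among the RefSeq genes of the gorilla (assembly NHGRI_mGorGor1-v2.1), from which names and the order of neighbouring genes were taken, and no coordinates.

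RNA came from fibroblast lines of 11 normal gorillas grown under one standard condition, with 1 array per line, 6 labelled female and 5 labelled male. The donors labelled female 1 to 6 were 19, 19, 35, 26, 30 and 2 years old, and those labelled male 1 to 5 were 19, 26, 24, 18 and 3 years old. A further culture of male line 2 (KB_7621) was harvested at 50% confluence, when cells cover part of the dish. Lines are numbered in the order of their accession within each sex, and equal numbers pair nothing. The sources used here do not state the body site of the biopsy or the passage number, so no line can be assigned to an anatomical position from its label. Each line is 1 animal and 1 culture, and the spread within a line is therefore unknown except for the pair of cultures of male line 2.

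The 39 HOX genes of mammals lie in 4 clusters, HOXA to HOXD. Within a cluster, genes at one end (low numbers) are active in anterior parts of the embryo and genes at the other end (high numbers) in posterior parts and in the ends of the limbs. Adult fibroblasts are known to keep much of this pattern in culture, so that the set of HOX genes they express differs with the part of the body they came from. HOX proteins bind DNA together with cofactors of the PBX and MEIS families, and chromatin regulators of the Polycomb and trithorax groups hold the genes silent or active.

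Values are the deposited intensities on a linear scale. The lowest value on every array was 100, here called the floor, and a probe set at 100 has only an upper limit. The probes were designed on human sequence, so a base difference in the gorilla transcript lowers a signal at any transcript level, and the level of one gene is not set against that of another. Between 50.9% and 59.9% of all probe sets stood above the floor on an array. Fibroblast markers were present on all 12 arrays, with 14 of 14 measured genes above the floor. Markers of other cell types above the floor in at least 6 of the 11 lines were 2 of 7 measured for keratinocytes, 0 of 6 for endothelium, 3 of 5 for melanocytes, 4 of 5 for blood cells and 3 of 5 for smooth muscle. KRT10 (1533 to 3059), MITF (146 to 449), MLANA (106 to 247), CD68 (420 to 1080), CD3E (140 to 252), SMTN (1495 to 3381) and ACTA2 (885 to 17653) were above it in all 11 lines, and CD14 reached 1673, whereas KRT5, KRT14 and DSP (keratinocytes), TYRP1 (melanocytes), VWF (endothelium) and PTPRC (blood cells) were at the floor on all 12 arrays. The line labelled female 3 carried RPS4Y1, a Y-linked gene, at 2595, against 100 to 115 in the other 5 lines labelled female and 2662 to 4363 in the males. It is therefore called the line labelled female 3, and results that rest on it are given without it as well. In bulk RNA, fewer cells that express a gene and less RNA per cell cannot be told apart.

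HOXB2, HOXB6, HOXB7, HOXC6 and HOXD4 stood above the floor in all 11 standard lines, and HOXB5 in 5 of them, so the lines shared which of the 6 measured genes were detected with the exception of HOXB5. HOXB2, which takes part in setting segment identity in the hindbrain, varied least. Its intensity ran from 216 to 314 with a median of 223.5 in the 6 lines labelled female, and was 251, 212, 280, 199 and 245 in males 1 to 5. Its mean was 243 ± 36.4 (SD, n = 11), and the highest line, female 4, was 1.58 times the lowest, male 4. Female 1, female 4 and male 3 were at 280 or above, and the remaining lines lay between 199 and 251.

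HOXB5, known for its part in placing the shoulder girdle, was near the limit of detection. It had 172 in female 1, 127 in female 5, 165 in male 1, 145 in male 4 and 225 in male 5, and it was at 100 in the other 6 lines. Lines with and without a signal occurred in both sexes, and the 3-year-old donor of male 5 gave the highest value. HOXB6, active in the lateral plate mesoderm of the embryo, had 230 to 409 in the lines labelled female (median 330.0) and 329, 374, 396, 472 and 478 in males 1 to 5, with a mean of 364 ± 77.1 (SD, n = 11). The lowest lines were the line labelled female 3 at 230 and female 6 at 267, and the highest were males 4 and 5. The name of the HOXB6 probe set, 160042_s_at, ends in the suffix that the array maker uses for probes shared with similar transcripts, so the gene measured is less certain.

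HOXB7, which neighbours HOXB6 in the gorilla gene table, varied most of the HOXB members. It had 193 to 646 in the lines labelled female (median 524.0) and 470, 239, 409, 521 and 586 in males 1 to 5, with a mean of 462 ± 146 (SD, n = 11) and a highest value 3.35 times the lowest. The line labelled female 3 (193) and male 2 (239) were low, female 6 had 369, and the other 8 lines lay between 409 and 646. On the log2 scale after normalization, its SD over the 11 lines was 0.58, and 0.46 without the line labelled female 3.

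**Figure D1:**
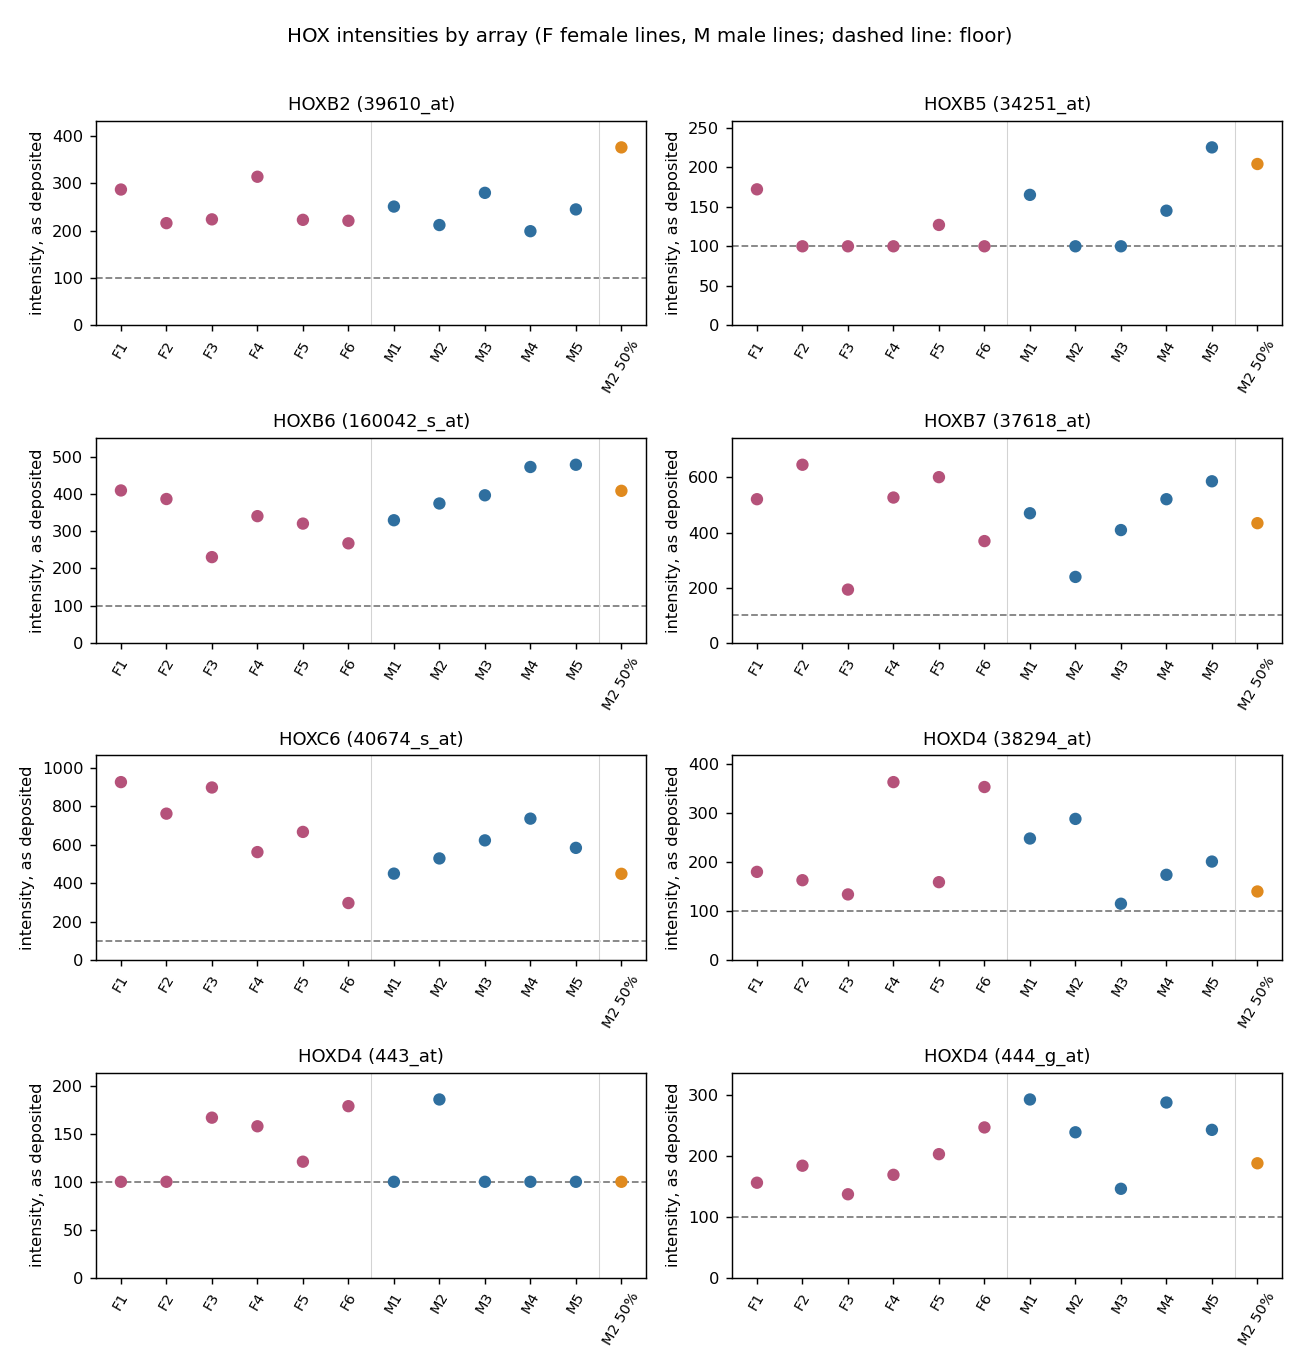
Deposited intensity (linear axis) of the 8 member probe sets that were bright enough to test, on the 6 arrays labelled female (F), the 5 labelled male (M) and the array of male line 2 at 50% confluence. Each point is 1 array and the dashed line is the floor of 100; HOXB2 lies between 199 and 314 on the standard arrays, whereas HOXB7 runs from 193 to 646.

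HOXC6, a gene whose anterior limit of expression lies in the thoracic region, was measured by 3 probe sets, of which 1 was informative. Probe set 40674_s_at had 297 to 926 in the lines labelled female (median 714.5) and 450, 529, 623, 736 and 584 in males 1 to 5, with a mean of 639 ± 187 (SD, n = 11). Female 6, the donor of 2 years, had the lowest value and female 1 the highest, followed by the line labelled female 3 at 898. Female 1 thus stood at 3.12 times the level of female 6. Probe set 33115_at rose above the floor in female 1 (112) and female 2 (132) alone, and 40675_r_at in male 4 (115) alone. The informative one carries the suffix for shared probes, so transcripts of neighbouring HOXC genes may contribute to it.

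HOXD4, a gene of the cervical vertebrae and hindbrain with a known retinoic acid response, had 3 probe sets that did not order the lines alike. On 38294_at it had 134 to 363 in the lines labelled female (median 171.5) and 248, 288, 115, 174 and 201 in males 1 to 5, with a mean of 216 ± 85.4 (SD, n = 11). Females 4 and 6 were high at 363 and 353, and male 3 was lowest at 115. On 444_g_at it had 137 to 247 in the lines labelled female and 293, 239, 146, 288 and 243 in the males, where males 1 and 4 were highest and female 4 had only 169. On 443_at it was above the floor in 5 lines, the line labelled female 3 (167), females 4, 5 and 6 (158, 121 and 179) and male 2 (186). Between 38294_at and 444_g_at, Pearson's r over the 11 lines was 0.40 (permutation p = 0.221) and Spearman's rho 0.40 (permutation p = 0.224), with an adjusted p of 0.608 and 0.855 over 36 relations. Without females 4 and 6, the lines farthest from the median, r was 0.65. A further probe set, annotated to HOXD4, HOXD3 and another symbol at once, was at the floor on all standard arrays but male 1, where it had 119.

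Other HOX genes on the array place these members within their clusters. Of the 39 genes, 18 had a probe set annotated to their symbol alone, namely 1 of 11 in HOXA, 7 of 10 in HOXB, 4 of 9 in HOXC and 6 of 9 in HOXD. Beside the members, 12 genes were thus read, 3 of which stood above the floor in all 11 lines. HOXC4 had 364 to 964 (mean 662 ± 202, SD, n = 11), HOXC5 184 to 780 (mean 478 ± 172, SD, n = 11) and HOXD8 124 to 313 (mean 207 ± 55.8, SD, n = 11). The HOXC5 probe set, 416_s_at, carries the suffix for shared probes, so the gene measured is less certain. HOXD13, a gene of the digits, was above the floor in 10 lines but reached at most 232, in female 6. HOXC11 and HOXB13, genes of the posterior trunk and tail, were each above the floor in 8 lines, with at most 184 for HOXC11, and HOXB3 was above it in 6 with at most 180. HOXB13 had 355 in male 2 and 100 to 208 in the other 10 lines. HOXD10 was above the floor in 4 lines, with 252 in male 2 and 193 in male 4. The anterior genes HOXA2 and HOXD1 were at the floor on all 12 arrays, HOXB1 reached 123 in male 1 alone, and both HOXD9 probe sets stayed at or below 159.

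**Figure D2:**
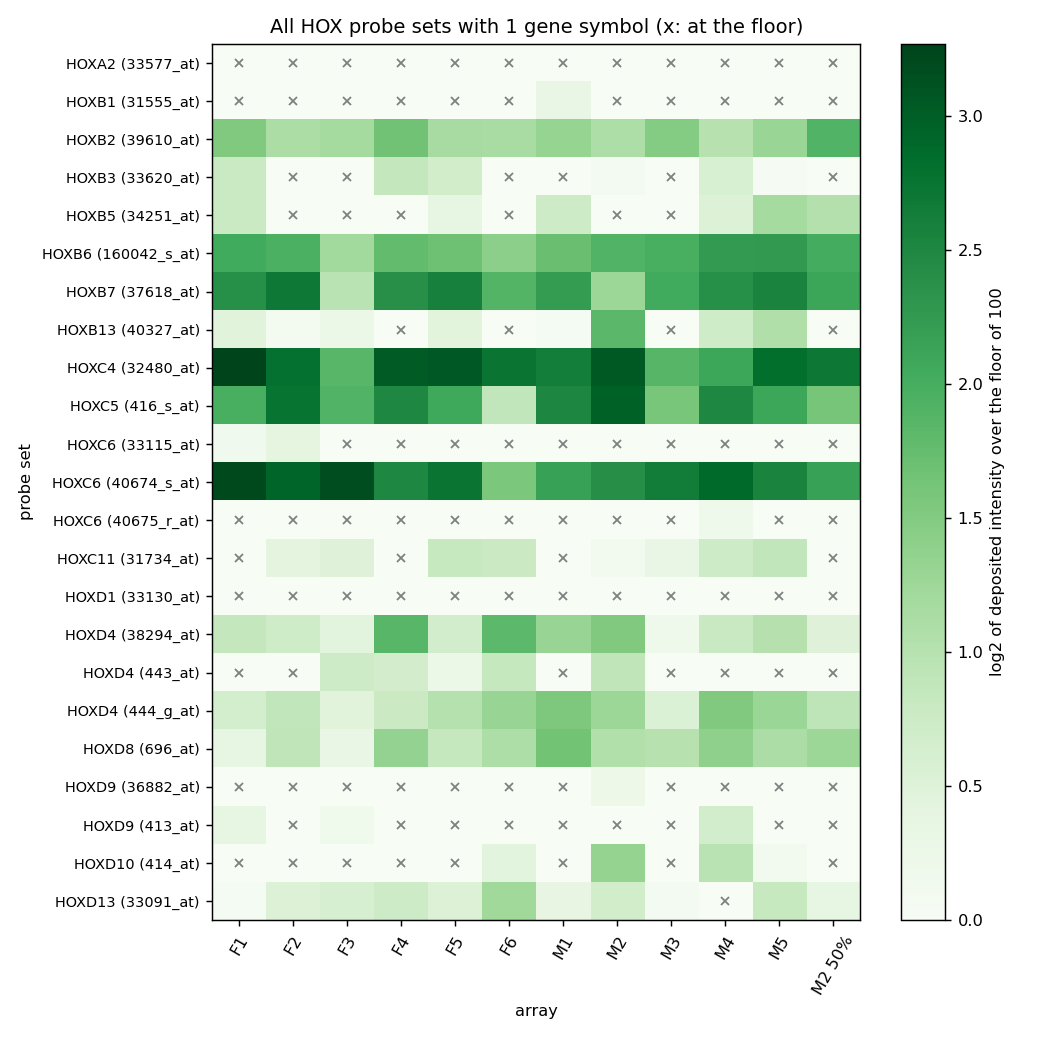
Log2 of the deposited intensity over the floor of 100 for all 23 HOX probe sets with 1 symbol, in cluster order (rows) and on 12 arrays (columns); crosses mark values at the floor. Colours are to be read along a row only. Rows of HOXB2, HOXB6, HOXB7, HOXC4, HOXC5, 1 probe set of HOXC6, 2 of HOXD4 and HOXD8 are filled on every array, and male 2 is the darkest array in the rows of HOXB13 and HOXD10.

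The number of HOX genes above the floor, out of 18, was 10 to 14 on the standard arrays. It was 13, 11, 12, 10, 13 and 11 in the lines labelled female 1 to 6, 12, 14, 10, 14 and 14 in males 1 to 5, and 10 in the culture of male 2 at 50% confluence. The arrays with the fewest genes included male 3 and the 50% confluence array, which also had the smallest shares of all probe sets above the floor (51.2% and 50.9%), and male 2, with 14 genes, had the largest share (59.9%). The part of overall signal in these counts was not tested.

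Levels of the members differed between lines about as much as those of other genes. Over the 8 member probe sets that passed the filter on dim signal, the median SD over the 11 lines was 0.38 log2 units, against 0.41 for all 7541 probe sets that passed and 0.45 for the 4604 of them with a mean in the range of the members. Of the 8, 3 lay above this last median, those of HOXB7, HOXC6 and HOXD4 (38294_at). The distance of a pair of lines was taken as the root mean square log2 difference over the 8 member probe sets. It had a median of 0.58 over the 55 pairs (0.21 to 0.91), against 0.67 (0.58 to 0.81) over all 7541 probe sets. Without the line labelled female 3 these medians were 0.55 and 0.66 over 45 pairs. Females 2 and 5 were closest to each other at 0.21, followed by female 2 and male 4 at 0.29. The line labelled female 3 and female 6 had the largest mean distances from the other lines, 0.77 and 0.71, and female 5 the smallest, 0.45. Since each line had 1 array, lines next to each other in the order of a gene's levels cannot be told apart.

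Relations between members across the lines were few. HOXB2, HOXB6, HOXB7, HOXC6 and HOXD4, each by its brightest probe set, gave 10 pairs, with Pearson's r from -0.73 to 0.63 and a median of 0.12, and 7 of the 10 were positive. No pair passed an adjusted p of 0.05 by r or rho, although 2 had an unadjusted permutation p under 0.05 by r and 1 by rho. HOXC6 and HOXD4 on 38294_at ran in opposite directions, with r = -0.73 (permutation p = 0.00763, adjusted p = 0.0763) and rho = -0.67 (permutation p = 0.0281, adjusted p = 0.281). For HOXC6 with HOXD4 on 443_at, above the floor in 5 lines only, r was -0.34. Females 4 and 6 had the highest HOXD4 on 38294_at and lay at 562 and 297 for HOXC6. The line labelled female 3 had 134 for HOXD4 on 38294_at and 898 for HOXC6. On 443_at, however, it had 167, beside 158 and 179 in females 4 and 6. Without the lines farthest from the median of HOXC6, females 6 and 1, r on 38294_at was -0.70, and without the line labelled female 3 it was -0.68. Without female 4 it was -0.86 at a permutation adjusted p of 0.0104, past the threshold. No other run with 1 line left out passed, with permutation adjusted p of 0.0603 to 0.295.

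The cluster neighbours HOXB6 and HOXB7 had r = 0.63 (permutation p = 0.0350, adjusted p = 0.175) and rho = 0.41 (permutation p = 0.204, adjusted p = 0.947). This relation rests on a pair of lines, since r was 0.19 without the line labelled female 3 and female 6 and 0.35 without the former alone. Between the 5 members and 7 other HOX genes, together with the pair of HOXD4 probe sets, none of 36 relations passed (smallest adjusted p = 0.608 by a permutation test of r). The 3 neighbours HOXC4, HOXC5 and HOXC6 gave r = 0.40 for HOXC6 with HOXC5 (permutation p = 0.214, adjusted p = 0.608) and r = -0.16 for HOXC6 with HOXC4 (permutation p = 0.658, adjusted p = 0.941). The corresponding rho were -0.12 (permutation p = 0.735, adjusted p = 0.905) and -0.0091 (permutation p = 0.989, adjusted p = 0.989), and r without females 6 and 1 was -0.32 and -0.55, so the sign of the first rests on those lines.

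**Figure D3:**
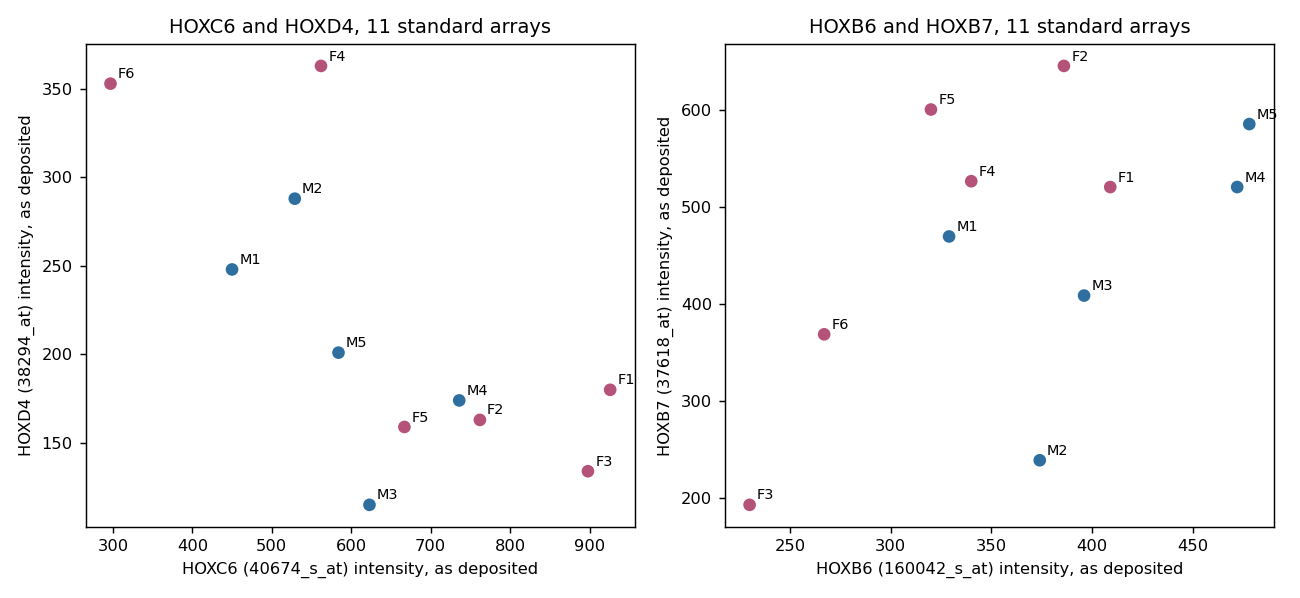
Deposited intensities of HOXC6 against HOXD4 (left) and of HOXB6 against HOXB7 (right) in the 11 standard lines, linear axes, 1 labelled point per line (F female, M male). HOXD4 is shown by 38294_at. Female 6 and female 4 have its highest values, 353 and 363, and the line labelled female 3 is lowest for both HOXB6 (230) and HOXB7 (193).

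Sex and age were compared over the 11 standard lines to ask whether donors of one kind shared a HOX level. HOXB6 had the higher mean in the males, 410 ± 64.3 (SD, n = 5) against 325 ± 68.4 (SD, n = 6), a log2 difference of 0.35 (SE 0.20), male minus female. HOXD4 had 242 ± 59.0 against 183 ± 38.8 on 444_g_at (log2 difference 0.41, SE 0.21), but -0.060 on 38294_at and -0.27 on 443_at. HOXB5 was at 0.28 (SE 0.24), HOXB7 at -0.064 (SE 0.33), HOXB2 at -0.070 (SE 0.20) and HOXC6 at -0.15 (SE 0.28). Without the line labelled female 3 the differences were 0.25 for HOXB6, 0.24 for HOXB5, -0.30 for HOXB7, -0.092 for HOXB2, -0.048 for HOXC6 and 0.33, -0.19 and -0.21 for HOXD4 on 444_g_at, 38294_at and 443_at, none of them called (smallest limma adjusted p 0.943). The HOXB7, HOXD4 (38294_at) and HOXC6 differences thus moved with that line, and they moved with other lines too. HOXB7 was at 0.17 without male 2, HOXD4 (38294_at) at 0.12 without female 4 and HOXC6 at -0.39 without female 6. Female and male intensities overlapped for all 8 member probe sets, and they were separate for 0.305% of all probe sets that passed the filter. limma called 0 of the 8 for sex and 0% of the 7541 probe sets. An unadjusted limma p under 0.05 was found for 0 of the 8, against 397 of the 7541. The smallest adjusted p of a member was 0.890.

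HOXC6 had the largest slope with donor age in size, 0.27 log2 units per 10 years (SE 0.13, limma adjusted p = 0.901), with 297 in the donor of 2 years, 584 in the donor of 3 years and 450 to 926 in the adults. Without female 6, the donor of 2 years, the slope was -0.027, so its positive sign rests on that line. HOXB7 had a slope of -0.21 (SE 0.17), HOXD4 -0.18 (SE 0.15) on 38294_at, -0.13 (SE 0.11) on 444_g_at and 0.066 on 443_at, HOXB5 -0.15 (SE 0.12), HOXB6 -0.050 (SE 0.11) and HOXB2 0.043 (SE 0.11). Without the line labelled female 3 the HOXB7 slope was -0.026 and that of HOXB6 0.032, of the other sign, so both rest on that line, and HOXD4 on 38294_at and 443_at and HOXB2 had -0.11, 0.020 and 0.077. Among the 9 adults HOXB7 had a slope of -0.84 (SE 0.28, limma adjusted p = 1, unadjusted p = 0.0118), which was -0.42 without the line labelled female 3. Its lowest value came from the oldest donor by the labels, the same line labelled female 3. limma called 0 of the 8 for age and 0% of the 7541 probe sets. An unadjusted limma p under 0.05 was found for 0 of the 8, against 410 of the 7541. The median slope of the members was -0.090, against -0.0017 over all probe sets.

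Both cultures of male line 2 were set side by side to ask whether 1 line keeps its HOX levels in a culture harvested at 50% confluence. The labels give no confluence for the standard arrays, so cell density and other differences between both cultures cannot be told apart. The comparison has 1 array per condition, so it has no replicate check and no p-value. HOXB2, HOXB5 and HOXB7 had higher values and HOXD4 lower ones at 50% confluence, while the differences of HOXB6 and HOXC6 were smaller. HOXB2 had 212 in the standard culture and 376 at 50% confluence, the latter above the highest of the 11 standard lines (314). HOXB5 went from the floor of 100 to 204, at least 2.04-fold. HOXB7 had 239 and 434, a value that brought it from the second lowest of the lines to the middle of their range. HOXB6 had 374 and 408, and HOXC6 529 and 449.

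HOXD4 had 288 and 140 on 38294_at, 186 and the floor of 100 on 443_at, and 239 and 188 on 444_g_at. Quantile-normalized log2 differences, 50% confluence minus standard, were 1.06 for HOXB2, 1.04 for HOXB7, 0.25 for HOXB6, -0.18 for HOXC6 and -0.73 and -0.042 for HOXD4 on 38294_at and 444_g_at. HOXB5 and HOXD4 on 443_at each had a value at the floor and have only bounds, at least 2.04-fold higher and at least 1.86-fold lower as deposited. With floor values taken as 100, 3 of the 8 member probe sets (HOXB2, HOXB5 and HOXB7) were higher by 2-fold or more on the normalized scale and 0 lower, against 6.96% higher and 7.24% lower of all 7541. On the deposited values HOXB5 and HOXD4 (38294_at) differed by 2-fold or more, and HOXB2 and HOXB7 by 1.77-fold and 1.82-fold. Scaling to a common median moved the median of all probe sets to 0.44, and on that scale HOXC6 (0.26) and HOXD4 on 444_g_at (0.15) were positive but below that median. The array at 50% confluence had the fewest probe sets above the floor and the standard array of male 2 the most, and the part of this gap in low values was not tested.

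**Figure D4:**
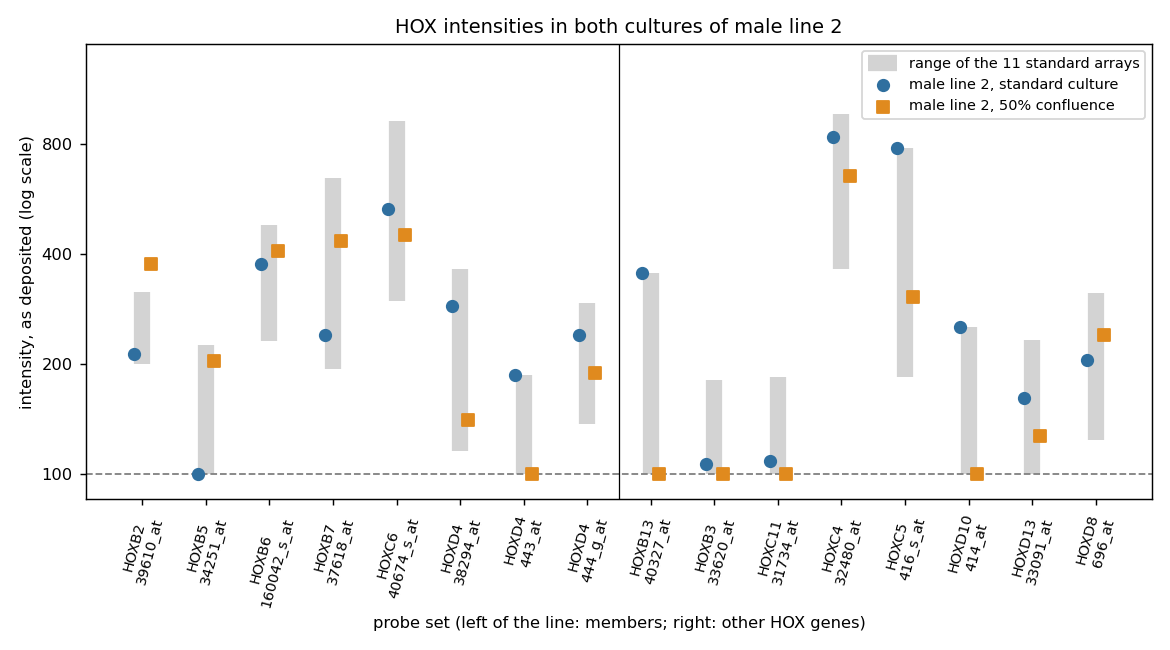
Deposited intensity (log axis) of the 16 HOX probe sets bright enough to test in the standard culture of male line 2 (circles) and its culture at 50% confluence (squares), 1 array each, over the range of the 11 standard arrays (grey bars, which include the standard culture). HOXB2 at 50% confluence (376) lies above the grey range, and the standard culture marks its upper end for HOXB13 (355), HOXC5 (780), HOXD10 (252) and HOXD4 on 443_at (186).

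Of the other HOX genes, HOXB13, HOXC5 and HOXD10 had their highest value of all lines in the standard culture of male line 2 and lower values at 50% confluence. HOXB13 went from 355 to the floor, at least 3.55-fold, HOXC5 from 780 to 304, 2.57-fold as deposited, and HOXD10 from 252 to the floor, at least 2.52-fold. HOXC4 had 833 and 651, and HOXD8 205 and 240. One of the 8 member probe sets, HOXB2, lay outside the range of the standard lines at 50% confluence, against 11.3% of all probe sets.

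The HOX levels did not place the 50% confluence culture nearest to its own line. Its root mean square log2 difference over the 8 member probe sets was 0.77 from the standard culture of male 2, which ranked 9 of the 11 lines by nearness, whereas male 5 (0.34) and male 1 (0.41) were nearest. Over all 7541 probe sets the own standard culture ranked 10 of 11 at 0.70, with the 11 lines between 0.57 and 0.76. Over 16 HOX probe sets, other HOX genes included, it ranked 11 of 11.

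**Figure D5:**
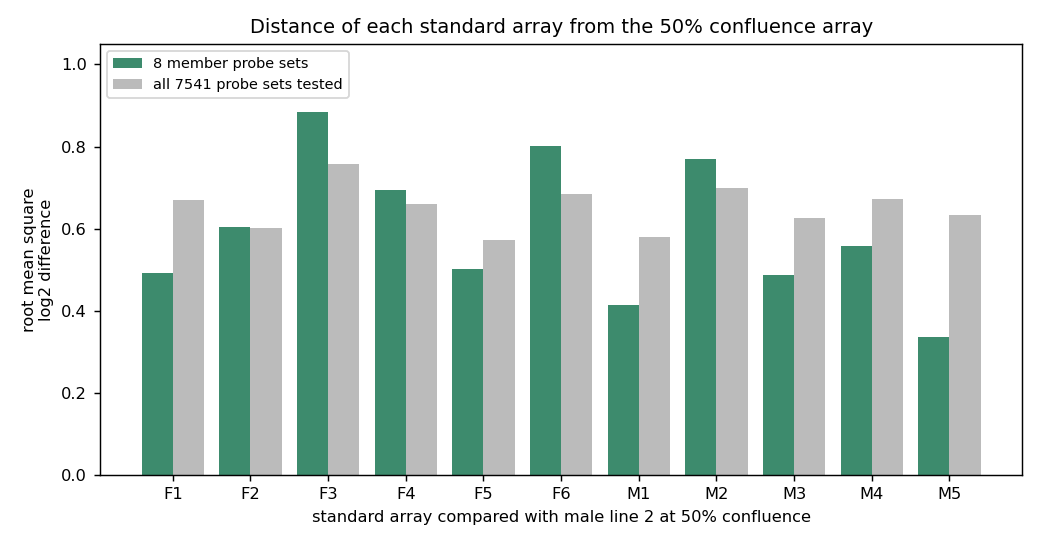
Root mean square log2 difference (linear axis from 0) of each of the 11 standard arrays from the array of male line 2 at 50% confluence, over the 8 member probe sets (dark bars) and over all 7541 probe sets tested (light bars). Male 5 (0.34) and male 1 (0.41) are nearest by member probe sets, and the line's own standard culture, M2, stands at 0.77 and 0.70.

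The 3 genes whose levels followed each member most closely over the 11 lines were not HOX genes. Only 14 HOX genes passed the filter, members included, so a top 3 without a HOX gene was likely for any gene. It does not tell whether HOX genes vary together. Among 5485 other genes that passed the filter, HOXB2 was most like S100A3 (Pearson's r = 0.91), C9 (0.90) and FLT3LG (0.85), and HOXB6 most like ERCC2 (0.91), DCAF7 (0.87) and TGFB1 (0.85). HOXB7 was most like EMD (0.91), which encodes the nuclear envelope protein emerin, XRCC1 (0.90) and NPM3 (0.90). HOXC6 was most like S100A11 (0.90), ALDH3A2 (0.89) and SERPINE2 (0.87). HOXD4 on 38294_at was most like the actin-binding protein gene ACTN1 (0.93), HDAC5 (0.93) and the focal adhesion gene TGFB1I1 (0.91). Each is among the highest of 5485 coefficients over 11 arrays and is given as a description. Some of these genes reached the floor of 100, so their coefficients rest in part on floor values. They were S100A3 (at most 324), C9 (190), FLT3LG (321), DCAF7 (285) and XRCC1 (411). The HOX gene ranked highest for any member was HOXB7 for HOXB6, at rank 78. Without the line labelled female 3 the 15 coefficients were 0.78 to 0.92.

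Cofactors and regulators of HOX genes were read from lists of 9, 26 and 21 genes. Of the TALE cofactors, 5 were measured and 3 were above the floor in at least 6 lines, among them MEIS2 at 145 to 358 and PBX3 at 155 to 335. Of the Polycomb and trithorax regulators 18 were measured and 16 were above the floor in at least 6 lines. EZH2, the Polycomb enzyme that methylates histone H3, had 100 to 814 over the lines, and in male line 2 it had 190 in the standard culture and 358 at 50% confluence, 2.25-fold after normalization. KDM6B, a demethylase that removes that mark, had 1022 and 465, 2.25-fold lower after normalization. Of the retinoid list 15 were measured, and DHRS3, a retinaldehyde reductase induced by retinoic acid, had 361 to 7143 over the lines and 2873 and 674 in male line 2, 4.48-fold lower at 50% confluence after normalization. Of the tested genes of these lists, 1 of 16 chromatin regulators was higher by 2-fold or more and 1 lower, 1 of 11 retinoid genes was lower, and 0 of 4 cofactors differed that much, against the 6.96% and 7.24% of all probe sets given above. limma called 0 genes of these 3 lists for sex or for age, where 0% of all probe sets were called. An unadjusted limma p under 0.05 was found for 2 and 2 of them, against 397 and 410 of all 7541 probe sets.

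Of 35 other transcription factors of position, 19 were measured and 9 were above the floor in at least 6 lines. limma called 0 of the 10 tested for sex or age, where 0% of all probe sets were called. An unadjusted limma p under 0.05 was found for 1 and 0 of the 10, against 397 and 410 of all 7541. Between both cultures of male line 2, 0 of the 10 differed by 2-fold or more, against 6.96% higher and 7.24% lower of all 7541. Some cell type markers differed by 2-fold or more between both cultures after normalization. Of 14 tested fibroblast markers, 1 was higher and 1 lower. Of 4 tested melanocyte and 4 tested blood markers, 1 each was lower. The count was 0 of 3 for keratinocytes, 0 of 1 for endothelium and 0 of 4 for smooth muscle. Of all 7541 probe sets, 6.96% were higher and 7.24% lower. At 50% confluence the fibroblast markers COL3A1 (5409 against 1906) and THY1 (2598 against 5147), the pigment cell factor MITF (100 against 281) and the monocyte marker CD14 (100 against 419) differed from the standard culture, and the summed intensity of the 14 fibroblast markers was 98774 against 161153. Summed intensities were 543 against 748 for the 5 melanocyte markers, 991 against 1521 for the 5 blood markers, 9707 against 12459 for the 5 smooth muscle markers, 3166 against 2431 for the 7 keratinocyte markers and 600 (all at the floor) against 714 for the 6 endothelial markers. These sums are of deposited values, and the median intensity was 105 at 50% confluence against 148 on the standard array. After normalization the median log2 difference of the tested markers was -0.039 for fibroblasts and -0.012 for melanocytes. It was -0.26 for blood cells, 0.030 for smooth muscle and -0.55 for keratinocytes, of which 3 were tested. The part of the marker differences in the HOX values of that line was not tested.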

How the data were processed

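Expression arrays of 12 gorilla fibroblast cultures were analysed, of which 11 were standard arrays of different lines. Each deposited column holds linear intensities as whole numbers with a floor of 100. The sources used here do not say how the authors summarised, scaled and floored them. The annotation gave 1 symbol for 10961 of 12625 probe sets, several for 545, and did not list 1119. Intensities were taken to log2 and quantile normalized, and the 7541 probe sets (67 control probe sets excluded) with a mean above the 40th percentile entered linear models (limma 3.58.1 under R 4.3.3; lmFit, then eBayes). P-values were adjusted by the Benjamini-Hochberg method over all of them, and a call is an adjusted p under 0.05. Sex was fitted alone, and age per 10 years with sex as a covariate. Printed intensities are as deposited. Correlations across lines used 100000 permutations, two-sided, with adjustment over each family of 10 or 36 relations, on log2 normalized values of genes above the floor in at least 6 of 11 lines. Named genes were all members, other HOX genes above the floor in at least 6 lines, the 3 genes most correlated with each such member, and list genes that differed by 2-fold or more between both cultures with the brighter value above the array's median. HOXB1, HOXA2, HOXD1, HOXD9, HOXD10, MEIS2, PBX3 and the genes given as marker checks were named after their values were seen. On simulated arrays with 100 probe sets changed by each fold between the sexes, limma recovered 61% at 2-fold and 95% at 4-fold. The simulated sex labels were all right, the noise was independent between probe sets, no floor was set, and both sets of changes were present at once. Alternatives were deposited values, scaling to a common median, other filters, a floor of 200, each line left out, adults only and log2 of age. The members and lists were chosen with earlier results of these data known. The number of arrays limits the precision, and p-values measure the spread between lines.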

Additional observations from a re-analysis of the deposited data

Results flagged for a closer look

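Within the lines of one sex, 7 of 38 groups of HOX intensities had 1 array far from the others by Dixon's criterion, which chance alone flags in about 1 of 20 groups. In 6 of the 7 the other arrays of that sex were all at the floor of 100, so the criterion there only marks 1 array above it. These were HOXC6 on 40675_r_at in male 4 (115), HOXD4 on 443_at in male 2 (186), HOXB1 in male 1 (123), HOXD10 in female 6 (135), and HOXD9 in male 2 on 36882_at (117) and in male 4 on 413_at (159). The other was HOXB3 in male 4, at 150 against 100 to 106 in the other males.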

How the results depend on the processing

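No member was called for sex or age under any alternative run, nor with any line left out. The own standard culture ranked 9 of 11 under all 5 alternatives to that distance. The count of members differing by 2-fold or more between both cultures was 3, all higher, against 6.96% higher and 7.24% lower of all probe sets. On deposited values it was 2, HOXB5 higher and HOXD4 (38294_at) lower. Median scaling gave 3 (HOXB2 1.32, HOXB5 1.52 and HOXB7 1.36), on a scale where the median of all probe sets was 0.44. A floor of 200 gave 1 and also leaves fewer members to count. The shares of all probe sets under these alternatives are not given here. The number of correlated member pairs, 0, was 0 to 1 with a line left out. Directions of uncalled values changed in places, and the cause was not tested. When male line 2 was represented by its 50% confluence array, the sex differences of HOXB2 and HOXB7 were 0.14 and 0.14. With a line left out, sex differences ran from -0.17 to 0.020 for HOXB2, -0.30 to 0.17 for HOXB7 and -0.19 to 0.12 for HOXD4 (38294_at), and age slopes from -0.030 to 0.079 for HOXB2, -0.25 to 0.032 for HOXB6 and -0.027 to 0.38 for HOXC6. Other uncalled values kept their sign but moved by over 1.5 times: HOXC6 (-0.39 to -0.038), HOXB5 (0.12 to 0.39) and HOXD4 on 443_at (-0.42 to -0.20) for sex, and HOXB7 (-0.55 to -0.026), HOXB5 (-0.36 to -0.036) and HOXD4 (38294_at -0.27 to -0.030, 443_at 0.0091 to 0.26, 444_g_at -0.19 to -0.080) for age. In adults the slopes of HOXB2 and HOXC6 were -0.053 and -0.066; in adults without the line labelled female 3, a choice made after seeing the data, those of HOXC6 and HOXD4 (38294_at) were -0.34 and 0.25. With log2 of age, HOXB6 was 0.0091 and HOXD4 (443_at) -0.0022 per doubling. Of 133 sex and 149 age values under alternatives, 121 and 140 kept their direction. Adjusted p ran from 0.587 to 1 for sex and 0.670 to 1 for age. Values at the floor of 100 are upper limits. On simulated arrays of this number 61% of 2-fold and 95% of 4-fold differences were recovered, and smaller folds were not simulated. The simulation took every sex label as right, drew independent noise, set no floor and changed 100 probe sets at each fold at once. Recovery on the measured arrays, and for members near the floor, may therefore be lower. With the labels as given, limma called 0 of 7541 probe sets for sex, so the Y-linked RPS4Y1 was not called either.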
